A study of Mus musculus with 6 samples.

Results

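The genes described here are 10 members of the AP-1 family of transcription factors and close relatives: the Jun genes Jun, Junb and Jund, the Fos genes Fos, Fosb, Fosl1 and Fosl2, and the related factors Atf3, Batf and Maff. They were chosen by name, as the rows of the deposited count table whose symbol equals one of these names. All 10 were present among 23203 gene symbols, and all 10 were among the 19741 genes with enough reads to be tested. RNA had been sequenced from the spleens of 6 Apoe-knockout mice, in cells labelled endothelial, with 1 library per mouse. All 6 mice lacked Apoe, ate a high cholesterol diet and received an antisense oligonucleotide (ASO) over the same 8 weeks. An ASO is a synthetic strand that binds a matching RNA in the cell and leads to its loss. Mice 1601, 1602 and 1608 had the control ASO, and mice 1603, 1604 and 1607 the MLKL ASO, which targets Mlkl, the executioner of necroptosis, and which the genotype label calls Mlkl KD. Age, sex, ASO dose and route and the method of cell isolation were not stated in the labels, and an ASO given to an animal is not limited to endothelium.

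AP-1 is a dimer of basic leucine zipper proteins. Jun proteins pair with each other or with Fos proteins, Fos proteins need a Jun partner, and Atf3, Batf and the small Maf protein Maff join the same network through their own zippers. Fos, Fosb, Jun, Junb and Atf3 are textbook immediate early genes, whose mRNA appears within minutes of a growth factor, cytokine, shear or stress signal and decays quickly. In spleen the family is known both in endothelium and in lymphocytes, and taking tissue apart to isolate cells is itself known to induce it.

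Libraries held 59988846 to 87776706 estimated counts. Mlkl measured 30.1, 31.5 and 38.7 CPM in control mice 1601, 1602 and 1608, and 7.52, 5.80 and 3.73 CPM in MLKL ASO mice 1603, 1604 and 1607 (CPM, each count as a share of the library total, scaled between libraries by edgeR's TMM factors). Endothelial markers were present in every library: Pecam1 measured 333 ± 57.5 and 361 ± 45.9 CPM (mean ± SD, n = 3) and Stab2, the scavenger receptor of sinusoidal endothelium, 741 ± 258 and 653 ± 63.4 CPM. Here and below, pairs of values give the control ASO group first and the MLKL ASO group second. Every library also held transcripts of blood cells. Control mouse 1608 stood apart, with a summed level of 12 megakaryocyte and platelet markers of 116 CPM against 1208 CPM or more in each other mouse, and with the highest sum of 16 pan-endothelial markers, 6179 CPM against 3229 to 4763 CPM. Log2 fold changes without it are given for some of the genes that it moved.

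The summed level of AP-1 transcripts measured lower in each MLKL ASO mouse than in any control mouse, and among the 10 genes Junb had the largest difference. Summed over the 10 genes, control mice 1601, 1602 and 1608 held 4367, 4367 and 5722 CPM, while MLKL ASO mice 1603, 1604 and 1607 held 2226, 2883 and 3052 CPM. Jun, Junb and Fos made up 91.0% to 94.1% of that sum in every mouse, so the sum describes these genes and not the family. All 10 genes had a log2 fold change (MLKL ASO minus control ASO) below 0, with a median of -0.41, where 52% of all genes tested were below 0 and their median was -0.02. By edgeR's quasi-likelihood test adjusted over all genes, 0 of the 10 passed the threshold of 0.05 as lower and 0 as higher, against 0.00507% of all genes in each direction. Mlkl, the target of the ASO, had an adjusted p of 0.0666 in the same test and did not pass either. At an unadjusted p under 0.05, 3 of 10 were lower and 0 higher, against 7.13% and 4.86% of all genes. Groups did not overlap in 3 of 10, each with the MLKL ASO mice below the control mice, against 10% of all genes in that direction and 8.73% in the other. DESeq2 called 1 of 10 lower and 0 higher (1.48% and 1.14% of all genes), limma-voom with sample weights called 1 of 10 lower and 0 higher (0.076% and 0.0456% of all genes), and the gene was Junb both times. On data simulated from these libraries DESeq2 called 64 unchanged genes, against 6 for edgeR and 7 for limma-voom. It also recovered more of 100 genes changed 2-fold, 41 against 12 for edgeR and 8 for limma-voom. The simulation used edgeR's own estimates of the spread of each gene and held no outlying mouse. These are levels in bulk RNA, in which fewer cells of a type and less RNA per cell cannot be told apart.

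**Figure D1:**
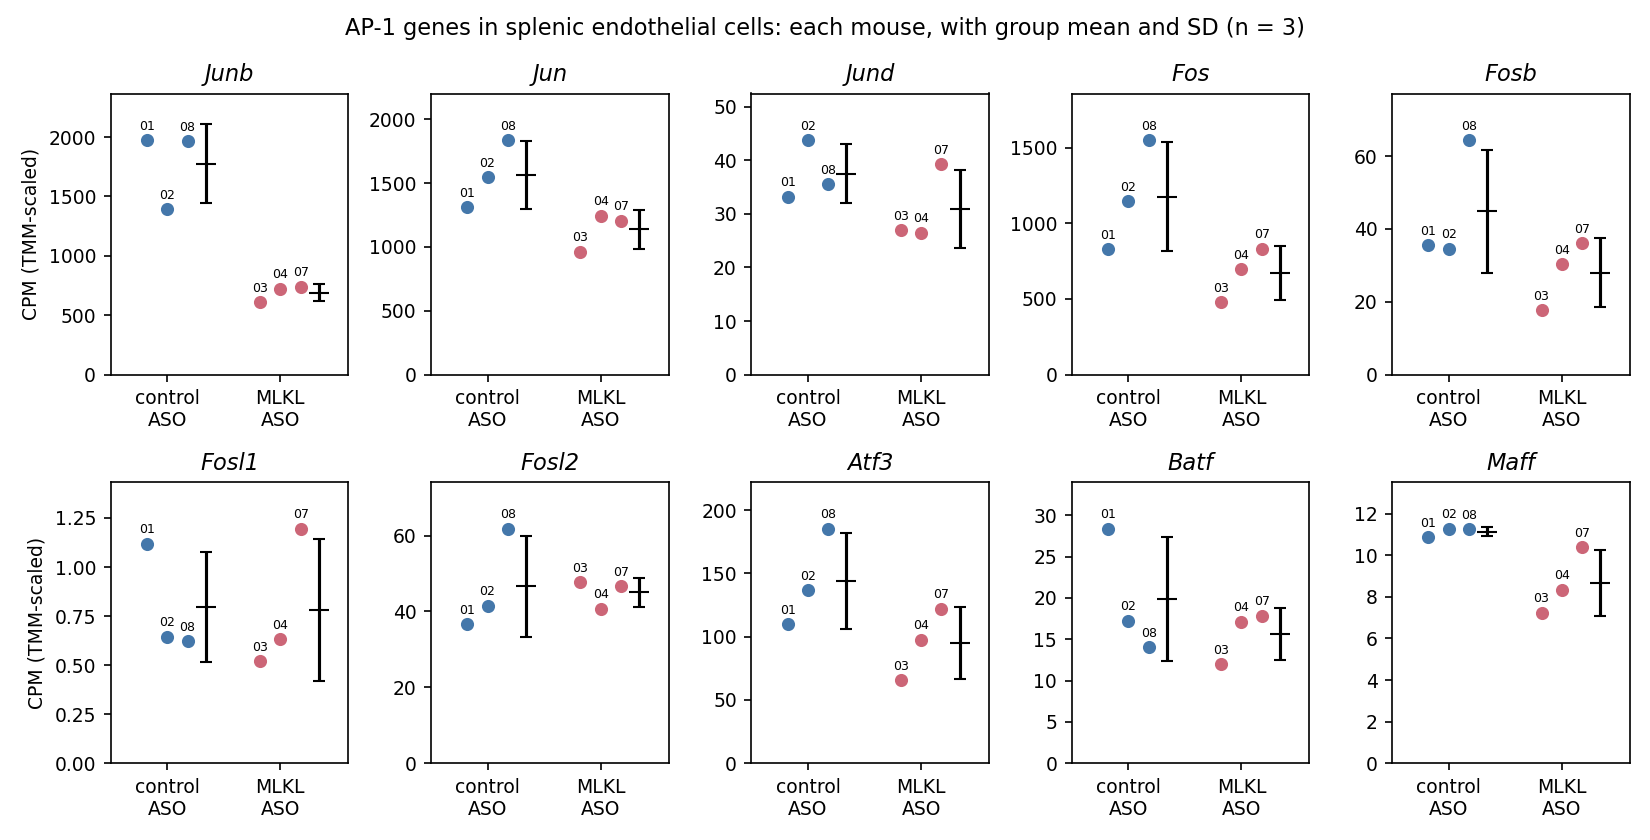
CPM of each AP-1 gene (vertical axes, each from 0) in the 3 control ASO mice (blue) and the 3 MLKL ASO mice (red), labelled by the last digits of the mouse number, with the group mean and SD in black. Junb separates the groups widely, from 608 to 740 CPM against 1390 to 1972 CPM, while in most other panels the points of the groups meet.

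Among the Jun genes, Junb encodes a Jun protein with weaker activity than c-Jun at many targets. Junb measured 1972, 1390 and 1967 CPM in control mice 1601, 1602 and 1608. In MLKL ASO mice 1603, 1604 and 1607 it measured 608, 722 and 740 CPM. The 3 MLKL ASO values lay close together and the highest of them was far below the lowest control value, in mouse 1602. The group levels were 1777 ± 335 and 690 ± 71.7 CPM (SD, n = 3 each), a 2.57-fold difference. The log2 fold change was -1.36 (95% interval -1.76 to -0.97) with an adjusted p of 0.104 in edgeR's quasi-likelihood test, which placed it 10th among all genes by p but above the threshold. The adjusted p was 2.13e-08 in DESeq2 and 0.0461 in limma-voom, and over all alternatives tried it ran from 2.13e-08 to 0.585. The authors' deposited table gives a log2 fold change of -1.28 for Junb with an adjusted p of 1.43e-06, in a table where 0.941% of genes passed as lower. Without control mouse 1608 the log2 fold change was -1.29, without mouse 1601 it was -1.28, and the range over the 6 runs with a mouse left out was -1.51 to -1.28.

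Jun encodes c-Jun, the founding Jun protein and the main target of the kinase JNK. Jun measured 1310, 1545 and 1835 CPM in control mice 1601, 1602 and 1608 and 963, 1243 and 1207 CPM in MLKL ASO mice 1603, 1604 and 1607. Groups did not overlap for Jun, but mouse 1604 lay just below control mouse 1601. The log2 fold change was -0.46 (95% interval -0.84 to -0.08; edgeR adjusted p = 0.366), and it was -0.33 without mouse 1608. Jund, a Jun gene with steadier expression that is less dependent on stimulation, measured 33.2, 43.7 and 35.5 CPM in control mice 1601, 1602 and 1608 and 26.9, 26.5 and 39.3 CPM in mice 1603, 1604 and 1607. The Jund values overlapped, since MLKL ASO mouse 1607 was above control mice 1601 and 1608. Its log2 fold change was -0.28 (95% interval -0.74 to 0.18; edgeR adjusted p = 0.616). It ranged from -0.48 without mouse 1607 to -0.15 without mouse 1602, and was -0.46 in limma-voom.

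A ratio of one gene to another within a library does not depend on how libraries are scaled. The log2 ratio of Junb to Jund was 5.89, 4.99 and 5.79 in control mice 1601, 1602 and 1608 and 4.50, 4.77 and 4.24 in MLKL ASO mice 1603, 1604 and 1607. Again the groups did not overlap, with means of 5.56 ± 0.494 and 4.50 ± 0.265 (SD, n = 3), a difference of -1.06. The exact two-sided permutation test gave p = 0.1, which is as low as 3 animals per group can reach (adjusted p = 0.2 over the 2 ratios tested). For Fos to Jund the means were 4.93 ± 0.445 and 4.42 ± 0.282, the groups overlapped, and the exact two-sided permutation test gave p = 0.3 (adjusted p = 0.3). Jun to Jund differed by only -0.16, and the values of Jun, like those of the other 7 genes in this comparison, overlapped between the groups. These ratios say how the balance between genes differed between mice, not which gene is more abundant.

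**Figure D2:**
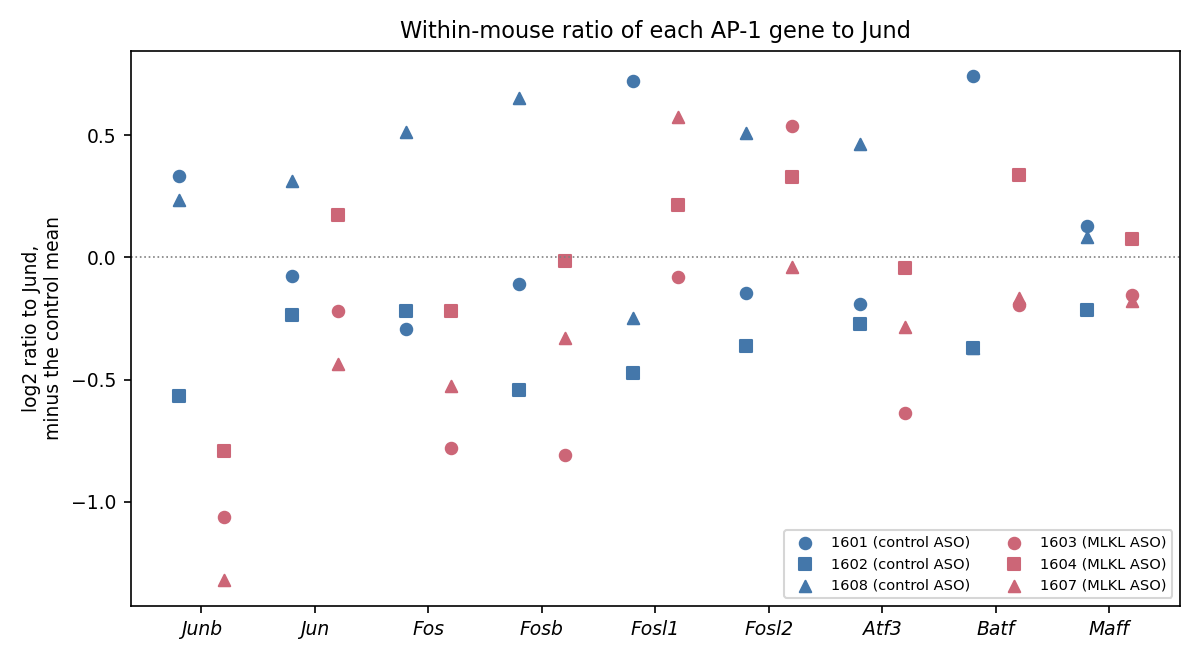
Log2 ratio of each AP-1 gene to Jund within each mouse, with the mean of the 3 control mice subtracted (vertical axis, log2 units), for control ASO (blue) and MLKL ASO (red) mice. For Junb all red points lie below all blue points, with a mean difference of -1.06, and for every other gene the colours overlap.

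Fos genes supply the partner that binds DNA only together with a Jun protein. Fos itself, the immediate early gene that gave the family its name, measured 828, 1146 and 1547 CPM in control mice 1601, 1602 and 1608 and 478, 696 and 832 CPM in MLKL ASO mice 1603, 1604 and 1607. Mouse 1607 of the MLKL ASO group reached the level of control mouse 1601, so the groups overlapped narrowly. The levels were 1174 ± 360.2 and 669 ± 178 CPM (SD, n = 3 each), with a log2 fold change of -0.81 (95% interval -1.45 to -0.17; edgeR adjusted p = 0.359). It was -0.56 without mouse 1608 and -0.62 without mouse 1603. The authors' deposited table gives -0.79 with an adjusted p of 0.174. Fosb, a second immediate early Fos gene, measured 35.5, 34.6 and 64.3 CPM in control mice 1601, 1602 and 1608 and 17.7, 30.3 and 36.1 CPM in mice 1603, 1604 and 1607. Only mouse 1608 exceeded all MLKL ASO mice for Fosb, and the log2 fold change of -0.68 (edgeR adjusted p = 0.464) was -0.33 without it and -0.44 without MLKL ASO mouse 1603.

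The Fos-related antigens Fosl1 and Fosl2, whose mRNA usually follows Fos with a delay, did not separate the groups. Fosl2 measured 36.6, 41.5 and 61.8 CPM in control mice 1601, 1602 and 1608 and 47.7, 40.7 and 46.6 CPM in MLKL ASO mice 1603, 1604 and 1607. Its log2 fold change of -0.05 had a 95% interval of -0.53 to 0.43 (edgeR adjusted p = 0.953), and it turned to 0.20 without mouse 1608. Fosl1 was scarce, at 0.518 to 1.19 CPM in the 6 mice, or 32.2 to 106 estimated counts. The Fosl1 log2 fold change of -0.02 had a 95% interval of -1.10 to 1.06 (edgeR adjusted p = 0.994), an interval that includes a 2-fold difference in either direction.

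Atf3, a stress-induced factor that can repress its targets as a homodimer, measured 110, 137 and 185 CPM in control mice 1601, 1602 and 1608 and 65.4, 97.5 and 122 CPM in MLKL ASO mice 1603, 1604 and 1607. Only mouse 1607 of the MLKL ASO group reached the control values. The log2 fold change was -0.60 (95% interval -1.23 to 0.03; edgeR adjusted p = 0.432) and moved to -0.38 without mouse 1608 and to -0.40 without MLKL ASO mouse 1603. Maff, a small Maf protein that has no activation domain of its own, measured 10.9, 11.3 and 11.3 CPM in control mice 1601, 1602 and 1608 and 7.24, 8.35 and 10.4 CPM in mice 1603, 1604 and 1607. The Maff groups did not overlap, yet mouse 1607 was close to the controls, and the log2 fold change of -0.36 had an edgeR adjusted p of 0.496. Batf, which pairs with Jun proteins and acts with IRF factors in lymphocytes and dendritic cells, measured 28.3, 17.2 and 13.99 CPM in control mice 1601, 1602 and 1608 and 12.0, 17.1 and 17.8 CPM in mice 1603, 1604 and 1607. Its difference lay in control mouse 1601: the log2 fold change was -0.34 with all mice (edgeR adjusted p = 0.680), 0.01 without it, and -0.55 to -0.19 with any other mouse left out. Mouse 1601 also held the highest sum of T and NK cell markers, 1239 CPM against 411 to 809 CPM in the other mice. It was highest as well for the sums of B cell (17372 CPM), plasma cell (25907 CPM), dendritic cell (1021 CPM) and macrophage and monocyte markers (3430 CPM). Whether any of these sums bears on Batf was not tested.

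**Figure D3:**
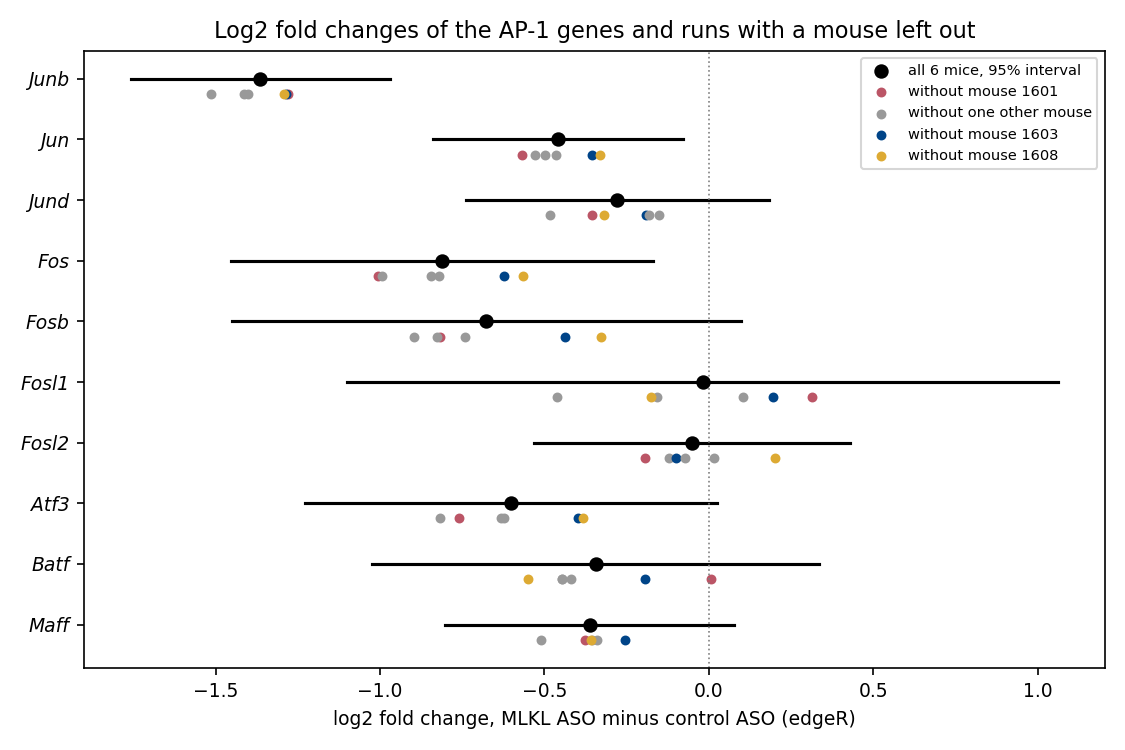
Log2 fold change of each AP-1 gene, MLKL ASO minus control ASO, from edgeR with all 6 mice (black points, lines the 95% interval) and with each mouse left out (small points, mice 1601, 1603 and 1608 coloured). Junb stays between -1.51 and -1.28 whichever mouse is left out, whereas Fosb, Atf3 and Fos move toward 0 without mouse 1608 or mouse 1603 and Batf without mouse 1601.

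The promoters of Junb, Fos, Jun and Atf3 are shown because these are the immediate early members with the most RNA or, for Atf3, the pattern closest to that of Fos. Each sequence is the 150 bases before the transcription start in the RefSeq promoter table of build GRCm38.p6, 5′ to 3′ on the gene's strand, with matches to the searched motifs in capitals. Junb lies at chr8:84978749-84978898 (minus strand), Fos at chr12:85473740-85473889 (plus strand), Jun at chr4:95052223-95052372 (minus strand) and Atf3 at chr1:191183334-191183483 (minus strand).
Junb: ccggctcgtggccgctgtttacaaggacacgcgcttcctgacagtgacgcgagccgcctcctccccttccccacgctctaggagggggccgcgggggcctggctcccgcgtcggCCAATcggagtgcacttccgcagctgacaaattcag
Fos: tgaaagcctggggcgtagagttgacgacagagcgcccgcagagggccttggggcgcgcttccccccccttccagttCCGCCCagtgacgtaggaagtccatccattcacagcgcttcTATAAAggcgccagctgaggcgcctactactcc
Jun: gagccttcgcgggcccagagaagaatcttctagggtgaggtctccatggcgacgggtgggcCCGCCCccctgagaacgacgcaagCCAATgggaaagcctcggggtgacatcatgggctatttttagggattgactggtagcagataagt
Atf3: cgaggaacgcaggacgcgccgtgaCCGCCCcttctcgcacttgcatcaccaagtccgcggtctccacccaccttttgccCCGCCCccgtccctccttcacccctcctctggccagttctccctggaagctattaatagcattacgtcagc
Capitals mark CCAAT in Junb and Jun, TATAAA in Fos, and GGGCGG (read as CCGCCC on the opposite strand) in Fos, Jun and Atf3.

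The search covered the 250 bases before each start on both strands, allowing overlaps, in 11 windows of 9 members (3 of them for Maff). Fosl1 had no entry. GGGCGG, the core of the site for Sp1 and its relatives, was present in 8 of 11 member windows against 32.7% of all 32851 windows in the table. CCAAT was present in 2 of 11, Junb at 36 bases and Jun at 65 bases before the start, against 33.8%. Distances are from the RefSeq start; the end of the window matched a GENCODE M21 coding transcript for 7 of the 9 genes and for neither Junb nor Jund, whose starts differ between these annotations. TATAAA was found in 1 of 11, that of Fos at 33 bases before the start, against 12.4%. The NF-κB site was present in 4 of 11 windows (Fos, Fosb, Fosl2 and a Maff window) against 3.9%. TGACGTCA, the cyclic AMP response element, was found in 1 of 11, a Maff window, against 1.55%. TGACTCA, the AP-1 site itself, was found in 0 of 11 against 4.46%, TTCNNNGAA, a STAT site, in 0 of 11 against 7.02%, and the CArG box of serum response factor in 0 of 11 against 1.47%. These are full matches of letters in a short window and show neither binding nor activity. Near matches, such as tgacatca in the Jun sequence, were not counted. Sites more than 250 bases before the start were not searched. A count of 0 thus does not show that a promoter lacks the site.

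Levels can be set beside each other between genes only per length, and the lengths used here are those of the longest coding transcript in GENCODE M21, which may not be the annotation behind the counts. In control mice Junb stood highest, at 982 ± 185 CPM per kilobase (SD, n = 3), followed by Fos at 557 ± 171 and Jun at 490.2 ± 82.4 CPM per kilobase, and the mean ± SD ranges of Fos and Jun overlapped while that of Junb lay above both. In MLKL ASO mice the 3 genes lay close together, with Junb at 381 ± 39.6, Jun at 357 ± 47.9 and Fos at 317 ± 84.7 CPM per kilobase, and the ranges of mean ± SD overlapped. Atf3 followed at 72.6 ± 19.2 and 47.9 ± 14.3 CPM per kilobase. Jund (22.5 ± 3.31 and 18.5 ± 4.35) and Batf (20.8 ± 7.88 and 16.4 ± 3.32) lay next, with overlapping ranges in both groups, then Fosb (11.9 ± 4.47 and 7.41 ± 2.48), Fosl2 (7.13 ± 2.04 and 6.89 ± 0.578) and Maff (5.69 ± 0.118 and 4.42 ± 0.812). In control mice each of these overlapped its neighbour, from Batf down to Maff; in MLKL ASO mice Fosb and Fosl2 overlapped, while Batf lay above Fosb and Fosl2 above Maff. Fosl1 was lowest at 0.426 ± 0.151 and 0.419 ± 0.194 CPM per kilobase. The genes were measured in the same mice, and these ranges do not use that pairing. Overlap therefore does not show that the order of the genes differed between mice.

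Mice differed within groups in the same way for many members. Mouse 1608 had the highest level of all 6 mice in 5 of 10 genes, and mouse 1603 the lowest in 8 of 10. Within the MLKL ASO group mouse 1607 was highest in 8 of 10. The genes fell into patterns when compared by the root mean square distance between their log2 CPM, each centred on its mean over the 6 mice. Fos and Atf3 were closest at 0.11, then Jund and Maff at 0.14 and Fosb and Atf3 at 0.15. Mouse 1607 reached control levels for Fos and Atf3 but not for Junb. Distances are descriptions of 6 shared libraries and were not tested.

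Among 9493 genes with a mean of at least 10 CPM, the genes most like Fos by this distance were Atf3 (0.11), Egr2, an immediate early zinc finger factor (0.14), Gpr4, a proton-sensing receptor (0.15), the inducible chaperone gene Hspa1a (0.15) and Bambi, a decoy receptor of TGF-β family ligands (0.19). Hspa1a measured 2823, 3158 and 4190 CPM in control mice 1601, 1602 and 1608 and 1731, 2153 and 2451 CPM in MLKL ASO mice 1603, 1604 and 1607. Hspa1a, like Fos, was highest in mouse 1608 and lowest in mouse 1603. Its log2 fold change of -0.68 was -0.51 without mouse 1608. Genes most like Junb included Socs1, an inhibitor of cytokine signalling (0.19), Evi5l (0.19), Coq8a, a factor of coenzyme Q synthesis (0.23), and Pla2g5, a secreted phospholipase (0.23). Socs1 measured 22.1, 15.1 and 18.5 CPM in control mice 1601, 1602 and 1608 and 8.57, 8.56 and 7.27 CPM in mice 1603, 1604 and 1607. Socs1, like Junb, was well apart between the groups and lowest among controls in mouse 1602. Genes picked for likeness to a member share its difference between the groups by that choice.

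Other genes of the network were taken from lists. Past the threshold in edgeR, each of the 6 lists below held 0 genes in either direction, so counts at an unadjusted p under 0.05 are given, to be read against 7.13% of all genes lower and 4.86% higher. Immediate early genes outside AP-1 had the lowest median log2 fold change of these 6 lists, -0.52, and 15 of 29 were lower and 0 higher. Groups did not overlap in 15 (all lower), against 10% of all genes in that direction. DESeq2 called 5 of the 29 lower and limma-voom 1, against 1.48% and 0.076% of all genes. Ier2, a nuclear protein of the early response, measured 746 ± 83.2 and 418 ± 39.8 CPM (edgeR adjusted p = 0.146). Socs3, a feedback inhibitor of JAK and STAT signalling, measured 77.4 ± 32.4 and 32.1 ± 3.89 CPM (edgeR adjusted p = 0.270). Its highest value, 115 CPM, was in control mouse 1608, and its log2 fold change of -1.27 was -0.87 without that mouse. The orphan receptor gene Nr4a1 measured 625 ± 149 and 346 ± 46.0 CPM (edgeR adjusted p = 0.270).

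Kinases and promoter factors that act on AP-1 genes, from MAP kinases to serum response factor and MEF2, had 1 of 34 lower and 0 higher. Their median was -0.24, and 29 of 34 were below 0, against 52% of all genes. Map3k11, a kinase upstream of JNK, measured 43.2 ± 24.5 and 23.9 ± 0.786 CPM with its highest value, 69.3 CPM, in control mouse 1608, and its log2 fold change of -0.85 was -0.34 without that mouse. Mef2d measured 19.1 ± 0.950 and 15.3 ± 1.57 CPM (edgeR adjusted p = 0.441). Genes that remove AP-1 mRNA or protein went both ways, with 1 of 14 lower and 2 higher and a median of 0.03. Zfp36, which binds AU-rich mRNA and is itself an early response gene, measured 474 ± 132 and 267 ± 58.2 CPM (edgeR adjusted p = 0.339). Its log2 fold change of -0.83 was -0.62 without mouse 1608. The deadenylase subunit gene Cnot6 measured 29.9 ± 2.32 and 39.7 ± 3.88 CPM (edgeR adjusted p = 0.347), and Cop1, a ubiquitin ligase for c-Jun, 14.2 ± 1.38 and 17.99 ± 0.948 CPM (edgeR adjusted p = 0.415).

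Textbook AP-1 target genes showed no common direction, with 2 of 38 lower, 5 higher and a median of -0.07. Edn1, the vasoconstrictor endothelin-1, measured 26.9 ± 7.98 and 14.7 ± 1.997 CPM (edgeR adjusted p = 0.325). Cyclin D1, Ccnd1, measured 127 ± 6.57 and 198 ± 46.2 CPM (edgeR adjusted p = 0.323), and the matrix glycoprotein gene Thbs1 63.4 ± 5.06 and 109 ± 34.96 CPM (edgeR adjusted p = 0.339), with a log2 fold change of 0.78 that was 0.52 without MLKL ASO mouse 1604. Their median turned to 0.12 without mouse 1601. Other basic leucine zipper genes had 5 of 30 lower and 2 higher and a median of -0.13, which was 0.01 without mouse 1608. DESeq2 called 1 of these 30 lower, against 1.48% of all genes. Nfil3, a repressor induced by cytokines, was that gene, at 21.9 ± 5.35 and 10.8 ± 2.94 CPM (edgeR adjusted p = 0.323). Cebpg measured 28.8 ± 6.08 and 47.1 ± 8.89 CPM (edgeR adjusted p = 0.339).

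**Figure D4:**
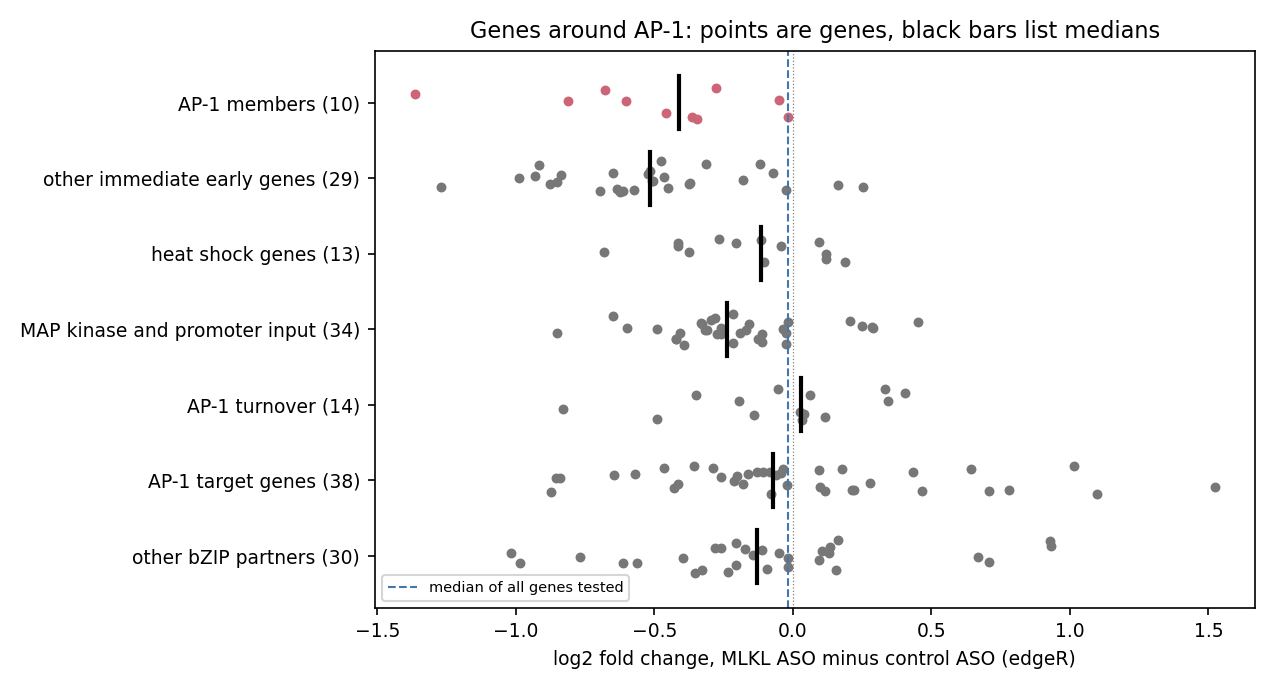
Log2 fold change of each tested gene, MLKL ASO minus control ASO (horizontal axis), for the AP-1 members (red) and 6 lists of genes around them (grey), with list sizes in parentheses, black bars for list medians and a dashed line for the median of all genes tested, -0.02. AP-1 members (median -0.41) and the other immediate early genes (median -0.52) lie to the left, and AP-1 target genes spread to both sides.

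Levels of handling genes and of other cell types are given here because they differed between the same mice. Heat shock genes, which tissue handling induces, had sums of 10601 to 14406 and 8984 to 10981 CPM. Of these genes 9 of 13 were below 0, against 52% of all genes. At an unadjusted p under 0.05, 3 of 13 were lower, against 7.13% of all genes. Their median of -0.11 turned to 0.07 without mouse 1608. Beside Hspa1a, Dnajb1 measured 609 ± 56.2 and 457 ± 64.2 CPM (edgeR adjusted p = 0.359) and Hspa8 4654 ± 742 and 3591 ± 357 CPM (edgeR adjusted p = 0.393), with a log2 fold change of -0.37 that was -0.25 without mouse 1608. With the heat shock level of each mouse as a covariate, the log2 fold change was -1.33 for Junb, -0.51 for Fos, -0.38 for Fosb, -0.32 for Jun and -0.34 for Atf3. That level includes Hspa1a, which was among the genes most like Fos across these mice. Whether handling bears on any of these genes was not tested.

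Of 16 pan-endothelial markers 12 were below 0 (median -0.14), and of 11 splenic sinusoidal markers 6 (median -0.15), against 52% of all genes. Without mouse 1608 these medians were 0.08 and 0.17. At an unadjusted p under 0.05, 1 and 2 of them were lower and 1 and 0 higher. DESeq2 called 1 marker lower on each list, against 1.48% of all genes, and limma-voom 1 and 0, against 0.076%. T and NK cell markers had sums of 525 to 1239 and 411 to 563 CPM. Log2 fold changes were below 0 for 18 of these 19 genes. Their median of -1.08, which was -0.71 without mouse 1601, lay further from 0 than that of the AP-1 genes. At an unadjusted p under 0.05, 17 were lower, against 7.13% of all genes. In 16, every MLKL ASO mouse was below every control mouse, against 10% of all genes. DESeq2 called 10 of the 19 lower, edgeR 0 and limma-voom 0, against 1.48%, 0.00507% and 0.076% of all genes. The sums were 7564 to 17372 and 5592 to 8711 CPM for B cell markers (13 of 13 below 0, median -0.73, 8 lower at an unadjusted p under 0.05), 10537 to 25907 and 9402 to 11157 CPM for plasma cell markers (10 of 10 below 0, median -0.81, 5 lower), and 783 to 1021 and 605 to 663 CPM for dendritic cell markers (10 of 11 below 0, median -0.44, 4 lower). Without mouse 1601 the medians were -0.34 for B cell, -0.44 for plasma cell and -0.34 for dendritic cell markers. None of the genes on these lists was at 0 in all libraries. With the mean level of T, NK, B and plasma cell markers as a covariate, the log2 fold change was -1.31 for Junb, -1.32 for Fos, -1.13 for Fosb, -0.76 for Jun and -1.01 for Atf3, and that of Batf turned to 0.47. That covariate, a mean of log2 levels, was lower in each MLKL ASO mouse than in any control mouse. The fit with it therefore could not separate the ASO from the lymphocyte level. Whether any of these genes differed independently of lymphocyte content was not tested. The part of the dendritic cell genes in these results was not tested either. Macrophage and monocyte markers summed to 1432 to 3430 and 1822 to 1989 CPM, erythroid markers to 47222 to 126923 and 70307 to 159133 CPM, and neutrophil markers to 270.1 to 1938 and 759 to 2116 CPM, all with overlap between the groups. T and NK, B and plasma cell sums overlapped too. Macrophage and monocyte genes were below 0 in 10 of 14 (median -0.12). Erythroid genes were above 0 in 15 of 15 (median 0.72) and megakaryocyte and platelet genes in 12 of 12 (median 1.05). Neutrophil genes were above 0 in 12 of 13 (median 0.43). At an unadjusted p under 0.05, 3, 1 and 0 of them in turn were higher, against 4.86% of all genes. With a mouse left out their medians ran from 0.32 to 1.15, 0.53 to 1.40 and -0.04 to 1.66.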

How the data were processed

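Estimated counts per gene symbol were deposited by the authors. Per the submitters' processing notes, fastp 0.20.1 (read trimming), Salmon 1.3.0 (assignment of reads to transcripts) and DESeq2 were used; per the labels' protocols, the mRNA kit was directional. No genome build or annotation is named in these sources. Of the table's values, 69.3% are not whole numbers, and 4 of its 23207 rows, whose symbols are numbers, were left out. The authors' deposited DESeq2 table has columns for p-values before and after adjustment, the Wald score, the log2 fold change, its standard error and the mean normalised signal, per the file headers. Its direction was settled from the data (Pearson r of 0.978 across 19724 genes, which are not independent replicates).

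Counts were rounded, filtered by filterByExpr, scaled by TMM and tested with edgeR 4.0.16 (quasi-likelihood, two-sided, Benjamini-Hochberg over all genes) in R 4.3.3. DESeq2 1.42.0, limma-voom (limma 3.58.1) with sample weights, other scalings and filters, covariates and each mouse left out were alternatives. Log2 CPM used a prior count of 2. Members, lists and the rule for named genes (members, Mlkl, Pecam1, Cdh5, Stab2, the 3 smallest p per list, the 5 genes most like Junb and Fos) were chosen with earlier results of these data known. The fits were tested on simulated data: of 100 genes changed 2-fold among 19741, edgeR recovered 12 with 6 unchanged genes called over the whole run, and of 100 changed 4-fold it recovered 61. DESeq2 recovered 41 and 82 with 64 unchanged genes called, and limma-voom 8 and 56 with 7. Protein sequences were not used here. Values of some named genes are not reported here.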

Additional observations from a re-analysis of the deposited data

How the results depend on the processing

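No paired analysis was possible because mouse numbers do not recur between the groups. The number of AP-1 genes past the threshold as lower was 0 in edgeR with all mice and in each run with a mouse left out (0 to 0), and 1 in DESeq2 and 1 in limma-voom. None was past it as higher under any alternative run. The member median stayed below 0, at -0.64 to -0.33 over the alternatives that kept all mice and -0.50 to -0.31 with a mouse left out. The counts over all genes, 1 lower and 1 higher, were 2 and 2 with upper quartile scaling, 4 and 5 with library totals only, 291 and 224 in DESeq2, 15 and 9 in limma-voom, 0 and 0 with the lymphocyte covariate, 3 and 5 with the heat shock covariate, and 3 and 4 without globin, immunoglobulin and T cell receptor genes (an alternative chosen after seeing the data); with a mouse left out they ran from 0 to 9 lower and 0 to 10 higher, the highest without mouse 1608.

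Junb, Fos, Fosb, Jun, Jund, Atf3 and Maff kept a log2 fold change below 0 under every alternative run. Signs turned for Fosl1, Fosl2 and Batf, and for the endothelial genes Pecam1, Cdh5 and Stab2. Fosl1 was 0.0085 with upper quartile scaling, 0.030 with library totals only and 0.75 with the lymphocyte covariate, and -0.46 to 0.31 with a mouse left out; it was not tested at a filter of 1 CPM in 3 libraries. Fosl2 was 0.060 in limma-voom, 0.14 with the heat shock covariate and -0.19 to 0.20 with a mouse left out. Batf was 0.47 with the lymphocyte covariate and -0.55 to 0.0069 with a mouse left out. Pecam1 was -0.18 with the lymphocyte covariate. Cdh5 was 0.044 in limma-voom, 0.29 with the heat shock covariate and -0.30 to 0.30 with a mouse left out, and Stab2 was 0.056 with the heat shock covariate and -0.39 to 0.12 with a mouse left out. The cause was not tested. With 3 mice a group, an exact permutation test cannot go below 0.1, and differences of 2-fold are often missed at this size.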
